A study of Rattus norvegicus with 6 samples.

Results

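The genes described here are 9 that mark platelets and their precursor, the megakaryocyte: Tubb1, Treml1, Itga2b, Pf4, Ppbp, Gp9, Gp1bb, Gp6 and Clec1b. They were taken by gene name, and each name matched 1 row of the 40995 in the table of read counts. Their mRNA was measured in the lungs of 3 rats of the crTMPRSS2 knockout (KO) line, in which Tmprss2 was targeted with CRISPR/Cas9, and of 3 wild-type (WT) rats. Both groups were on a Sprague-Dawley background and received no treatment. The sources used here do not give sex, age, litter, the allele made, the number of founders or whether the lungs were perfused. Tmprss2 encodes a membrane-anchored serine protease of airway and alveolar epithelium, and the samples were compared by genotype alone.

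Megakaryocytes are large polyploid cells that shed platelets, and the lung is a site where they lodge and release platelets into the blood. Platelets have no nucleus but carry messenger RNA made by the megakaryocyte, so RNA of lung tissue contains transcripts from lung megakaryocytes and from platelets in lung blood. Several of the 9 genes are switched on in megakaryocytes by GATA1, which binds GATA motifs, and by ETS-family factors such as FLI1, whose binding sites have a GGAA core. In bulk tissue RNA, fewer cells of a type and less RNA per cell cannot be told apart.

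Sftpc, the surfactant protein C gene of alveolar type II cells in the lung, stood at 8325 to 8724 CPM (counts scaled to a common library size) in KO libraries and at 9470 to 15408 CPM in WT libraries. Total counts were 29933359 to 30514778 in KO libraries and 33033732 to 36895162 in WT libraries. WT replicate 1 stood apart: its Pearson correlation with the other libraries, across genes on the log2 scale, was 0.936 to 0.948, against at least 0.979 among the other 5. It held RNA of skeletal muscle, with a summed level of 9089 CPM over 6 marker genes, against 21.6 to 49.8 CPM in KO libraries and 22.2 and 25.7 CPM in the other WT libraries. It also held RNA of squamous epithelium, at 3266 CPM over 5 genes, against at most 6.60 CPM in KO and 7.75 CPM in the other WT libraries. The 9 genes are therefore compared with all 6 libraries and without WT replicate 1. Tmprss2 mRNA was at 46.1, 56.4 and 47.0 CPM in KO libraries and at 50.5, 62.0 and 65.7 CPM in WT libraries, with an edgeR adjusted p of 0.508, and of 0.0589 without WT replicate 1, so its level does not check the genotype labels.

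Promoter windows of 8 of the 9 genes were found in the RefSeq set for the build GRCr8. Each runs from 250 bases before the annotated start to 50 bases from it on, and of 2 windows listed for Tubb1 only 1 is used. Windows are printed for Tubb1, Treml1 and Itga2b, which the authors' deposited table lists as lower in KO, and for Clec1b, which it does not list. The smallest absolute log2 fold change in that table is 1.001 and the largest adjusted p is 0.0479, whereas the tests made here set no minimum fold. Capitals mark AGATAA or TGATAA, 2 forms of the GATA motif, and GGAA, the ETS core, on either strand, so that GGAA on the other strand reads TTCC. The Tubb1 window is chr3:183665939-183666238 on the plus strand, the Treml1 window chr9:20139884-20140183 on the minus strand, the Itga2b window chr10:87925784-87926083 on the minus strand and the Clec1b window chr4:164533859-164534158 on the plus strand.
Tubb1: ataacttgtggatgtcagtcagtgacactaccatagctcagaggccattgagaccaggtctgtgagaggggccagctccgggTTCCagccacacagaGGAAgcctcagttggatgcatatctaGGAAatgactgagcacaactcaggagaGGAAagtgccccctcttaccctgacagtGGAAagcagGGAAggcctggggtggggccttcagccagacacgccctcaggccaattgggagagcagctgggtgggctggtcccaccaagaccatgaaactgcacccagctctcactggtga
Treml1: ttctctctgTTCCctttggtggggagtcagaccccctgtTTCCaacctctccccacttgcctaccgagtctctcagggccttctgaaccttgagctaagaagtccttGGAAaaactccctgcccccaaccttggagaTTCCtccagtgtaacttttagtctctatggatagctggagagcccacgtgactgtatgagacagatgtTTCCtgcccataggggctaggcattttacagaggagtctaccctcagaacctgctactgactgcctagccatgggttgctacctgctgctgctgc
Itga2b: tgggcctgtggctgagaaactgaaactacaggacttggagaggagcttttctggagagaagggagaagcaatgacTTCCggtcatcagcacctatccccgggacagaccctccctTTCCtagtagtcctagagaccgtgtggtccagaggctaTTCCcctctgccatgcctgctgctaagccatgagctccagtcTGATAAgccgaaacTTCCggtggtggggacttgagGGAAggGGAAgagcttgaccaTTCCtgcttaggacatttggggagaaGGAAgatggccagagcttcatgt
Clec1b: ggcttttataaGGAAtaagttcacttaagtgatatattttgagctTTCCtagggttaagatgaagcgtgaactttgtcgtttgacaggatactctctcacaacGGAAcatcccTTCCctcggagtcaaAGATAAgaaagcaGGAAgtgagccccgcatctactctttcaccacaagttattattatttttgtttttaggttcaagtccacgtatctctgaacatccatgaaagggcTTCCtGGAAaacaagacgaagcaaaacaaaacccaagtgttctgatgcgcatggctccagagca

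A GATA form was found in the windows of Itga2b, Gp6 and Clec1b, 3 of the 8, against 18.9% of all 33469 windows in the set. In Itga2b it was TGATAA, at positions -55 to -50 from the start. In Clec1b it was AGATAA, at -122 to -117. The Tubb1 and Treml1 windows held neither of these 2 forms. Other forms of the GATA motif were not searched for in any window. GGAA was found in all 8 windows, and in 95.8% of all windows, so its presence does not set these genes apart. It occurred 6 times in Tubb1, 5 times in Treml1, 8 times in Itga2b and 7 times in Clec1b. A match is a description of the letters and not evidence of binding.

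All 7 genes that could be tested had fitted log2 fold changes below 0, from -1.997 in Treml1 and -1.86 in Tubb1 to -0.06 in Gp6. Of all tested genes, 50.3% had a log2 fold change below 0, and 49.3% without WT replicate 1. With all 6 libraries 0 of the 7 passed edgeR's quasi-likelihood test at an adjusted p under 0.05, at a background of 0.0379% of 18464 tested genes called lower, while 4 had an unadjusted p under 0.05, at a background of 6.29%. Without WT replicate 1, Tubb1 and Treml1 fell, 2 of the 7, at a background of 2.34% of 18994 tested genes, and 4 of the 7 were lower at an unadjusted p under 0.05, at a background of 9.28%. DESeq2 on the same genes with all 6 libraries called Tubb1, Treml1 and Itga2b lower, at a background of 1.66%, and called the same 3 without WT replicate 1, at a background of 3.49%. The median log2 fold change of the 7 was -0.97 with all 6 libraries and -0.77 without WT replicate 1, against 0.00 for all tested genes in both fits. Ppbp and Gp1bb did not pass the filter on low counts.

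Tubb1 encodes the beta-1 tubulin that forms the marginal microtubule band giving the platelet its disc shape. The gene lies at chr3:163247990-163257460 on the plus strand of mRatBN7.2, the build of all gene positions given here. Tubb1 stood at 1.17, 1.48 and 1.12 CPM in KO libraries and at 4.74, 5.76 and 3.24 CPM in WT libraries. The KO libraries lay close together and all below the lowest WT library, with read counts of 35 to 47 in KO and 121 to 191 in WT. The means were 1.25 ± 0.198 CPM in KO and 4.58 ± 1.27 CPM in WT (SD, n = 3 each), 3.65-fold lower in KO. The fitted log2 fold change was -1.86 (SE 0.30) and its 95% confidence interval ran from -2.56 to -1.17, at an edgeR adjusted p of 0.122. It was -1.84 (SE 0.31) in the fit without WT replicate 1, at an edgeR adjusted p of 0.0113. That call was lost when WT replicate 2 was left out as well (log2 fold change -1.37, edgeR adjusted p 0.116), in a fit that leaves 1 WT library and assumes that it varies like the KO group. In the authors' deposited table Tubb1 is listed at a log2 fold change of -1.87 with an adjusted p of 3.11e-05.

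Treml1 encodes TREM-like transcript 1, a receptor stored in platelet alpha granules and moved to the surface on activation, and the gene lies at chr9:12635584-12642929 on the minus strand. Treml1 stood at 0.550, 0.694 and 0.446 CPM in KO libraries and at 1.93, 2.62 and 2.23 CPM in WT libraries. The groups did not overlap, and the highest KO library was well under the lowest WT library. These levels rest on 14 to 22 reads in KO and 57 to 87 reads in WT, so counting error is a larger part of them than for Itga2b. The means were 0.563 ± 0.124 CPM in KO and 2.26 ± 0.348 CPM in WT (SD, n = 3 each), 4.01-fold lower in KO. The fitted log2 fold change was -1.997 (SE 0.32) and its 95% confidence interval ran from -2.74 to -1.25, at an edgeR adjusted p of 0.122. It was -2.10 (SE 0.36) in the fit without WT replicate 1, at an edgeR adjusted p of 0.0120. The call without WT replicate 1 was likewise lost when WT replicate 2 was left out as well (log2 fold change -1.97, edgeR adjusted p 0.0929). The authors' deposited table lists Treml1 at -2.01 with an adjusted p of 0.000463.

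Itga2b encodes integrin alpha-IIb, the chain that pairs with integrin beta-3 to form the platelet fibrinogen receptor, and the gene lies at chr10:87408532-87426055 on the minus strand. Itga2b stood at 6.44, 5.26 and 4.82 CPM in KO libraries and at 14.8, 12.003 and 6.78 CPM in WT libraries. WT replicate 3 was only slightly above the highest KO library, and the WT libraries were far more spread than the KO libraries. The means were 5.51 ± 0.841 CPM in KO and 11.2 ± 4.07 CPM in WT (SD, n = 3 each). The fitted log2 fold change was -1.02 (SE 0.30) and its 95% confidence interval ran from -1.73 to -0.32, at an edgeR adjusted p of 0.304. Leaving out WT replicate 1 gave -0.77 (SE 0.24), at an edgeR adjusted p of 0.118. DESeq2 called it in both comparisons, at adjusted p values of 0.0472 and 0.0431. Leaving out WT replicates 1 and 2 gave an edgeR log2 fold change of -0.30, and leaving out 1 and 3 gave -1.13. Each of these fits leaves 1 WT library. In the authors' deposited table Itga2b is listed at -1.03 with an adjusted p of 0.0442.

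**Figure D1:**
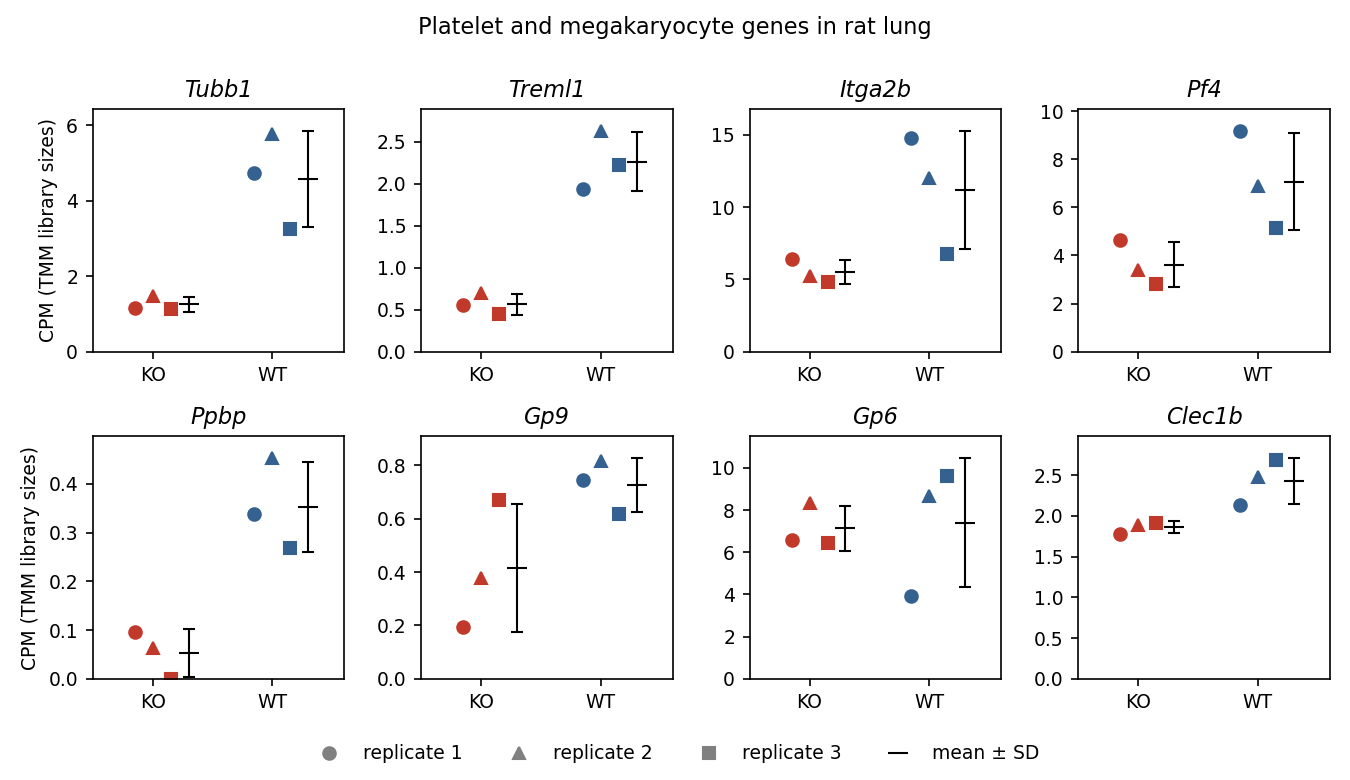
Level of 8 of the 9 genes in each library, in CPM with TMM library sizes (y axes start at 0 and differ between panels), for KO (left, red) and WT (right, blue); symbols are replicates and bars are mean ± SD (n = 3 each). The KO and WT points of Tubb1 and Treml1 are well separated, those of Gp9 and Gp6 overlap, and Gp1bb, with no reads in any library, is not drawn.

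Pf4 and Ppbp encode the platelet chemokines CXCL4 and CXCL7, both packed into alpha granules, and lie on the minus strand at chr14:17298438-17299148 and chr14:17302326-17303130, with a gap of 3177 bases. Pf4 stood at 4.63, 3.40 and 2.81 CPM in KO libraries and at 9.18, 6.88 and 5.15 CPM in WT libraries. The groups did not overlap, but WT replicate 3 was near KO replicate 1. Pf4 averaged 3.61 ± 0.930 CPM in KO and 7.07 ± 2.02 CPM in WT (SD, n = 3 each), a log2 fold change of -0.97 (SE 0.29, 95% confidence interval -1.65 to -0.28, edgeR adjusted p 0.316). Without WT replicate 1 the log2 fold change was -0.73 (SE 0.25), with an edgeR adjusted p of 0.146. It was -0.51 when WT replicate 2 was left out as well, and -0.93 when WT replicate 3 was.

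Ppbp was far scarcer. It had 3, 2 and 0 reads in KO libraries and 10, 15 and 10 reads in WT libraries, or a mean of 0.0534 ± 0.0493 CPM in KO and 0.353 ± 0.0930 CPM in WT (SD, n = 3 each). Every WT library was above every KO library, yet with these read numbers the gene did not pass the filter. When genes with at least 1 count were all tested, its log2 fold change was -2.64 (SE 1.00), with an edgeR adjusted p of 0.478. A count of 0 in KO replicate 3 allows up to 0.0957 CPM if reads are independent (3 reads), and up to 0.191 CPM if both mates of a fragment were counted (6 reads), so it cannot be set below the other KO libraries.

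Gp9 and Gp1bb encode glycoprotein IX and the beta chain of glycoprotein Ib, small leucine-rich repeat proteins of the receptor for von Willebrand factor. Gp9 (chr4:120235539-120236874, plus strand) stood at 0.194, 0.378 and 0.670 CPM in KO libraries and at 0.745, 0.814 and 0.617 CPM in WT libraries. KO replicate 3 was above WT replicate 3, and the KO libraries spread more than 3-fold on 6 to 21 reads. The log2 fold change of Gp9 was -0.80 (SE 0.51, 95% confidence interval -1.9996 to 0.40, edgeR adjusted p 0.555), and -0.78 (SE 0.61) without WT replicate 1, where the edgeR adjusted p was 0.574. The interval includes 0 and reaches values near the estimate for Treml1.

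Gp1bb had 0 reads in all 6 libraries, which allows up to 0.189 to 0.194 CPM in KO and 0.161 to 0.203 CPM in WT libraries with both mates counted. Its row (chr11:82378216-82379393, plus strand) lies wholly inside that of Septin5 (chr11:82373601-82379393, plus strand), a septin gene known to be joined to Gp1bb by read-through transcripts in human cells, and both rows end at the same base. The sources used here do not give how reads over both genes were counted, so the 0 cannot be read as absence of Gp1bb mRNA. Among 286 protein-coding genes that lie inside another on the same strand, 18.9% had 0 reads in all 6 libraries, against 16.2% of the other 21942. These were classed by start and end alone, whether or not their exons overlap, so the shares cannot show how the overlap affected Gp1bb. Septin5, named after its values were seen, had 191, 252 and 260 reads in KO libraries and 503, 316 and 314 reads in WT libraries. Its log2 fold change was -0.64 (SE 0.29), with an edgeR adjusted p of 0.457, and -0.26 (SE 0.17) without WT replicate 1, where the edgeR adjusted p was 0.485.

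Gp6 and Clec1b encode the receptors that start platelet activation on collagen (glycoprotein VI) and on podoplanin (CLEC-2). Gp6 (chr1:69429232-69492709, plus strand) stood at 6.60, 8.35 and 6.44 CPM in KO libraries and at 3.93, 8.69 and 9.60 CPM in WT libraries. WT replicate 1 was the lowest of the 6, and WT replicates 2 and 3 the highest. The log2 fold change was accordingly -0.06 (SE 0.33, 95% confidence interval -0.84 to 0.73, edgeR adjusted p 0.945) with all 6 libraries and -0.36 (SE 0.17, 95% confidence interval -0.73 to 0.01, edgeR adjusted p 0.301) without WT replicate 1. Its sign with all 6 libraries changed under several other settings.

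Clec1b (chr4:162847978-162856291, plus strand) stood at 1.78, 1.89 and 1.91 CPM in KO libraries and at 2.13, 2.47 and 2.68 CPM in WT libraries. The groups did not overlap and were each tight, but the gap was small. It averaged 1.86 ± 0.0711 CPM in KO and 2.43 ± 0.277 CPM in WT (SD, n = 3 each). Its fitted difference was -0.38 on the log2 scale (SE 0.24, 95% confidence interval -0.94 to 0.17, edgeR adjusted p 0.546), and -0.47 (SE 0.26, edgeR adjusted p 0.397) without WT replicate 1. Of the 7 tested genes, 5 had every KO library below every WT library, at a background of 11.4% of tested genes. The count was 6 of 7 without WT replicate 1, at a background of 17.5%.

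**Figure D2:**
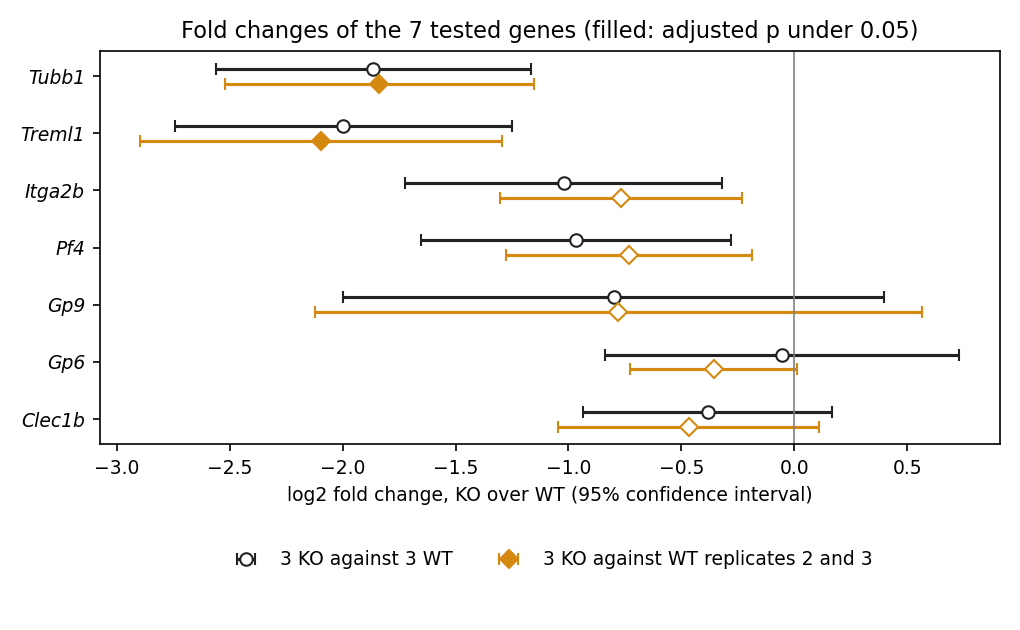
Log2 fold change of KO over WT (x axis) with its 95% confidence interval for the 7 tested genes, from edgeR with all 6 libraries (circles) and without WT replicate 1 (diamonds); filled symbols have an adjusted p under 0.05. Tubb1 and Treml1 lie between -2.10 and -1.84 in both fits and are filled without WT replicate 1, and the intervals of Gp9, Gp6 and Clec1b include 0 in both.

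Ratios between the genes within a library, which do not depend on library scaling, differed between the groups for some pairs. The log2 ratio of Treml1 to Clec1b within a library was -1.69, -1.45 and -2.10 in KO libraries and -0.14, 0.09 and -0.27 in WT libraries. Every KO ratio was below every WT ratio. These are ratios of CPM values, not per length, so they compare the groups and not the levels of both genes. The log2 ratio of Itga2b to Clec1b was 1.86, 1.48 and 1.33 in KO libraries and 2.79, 2.28 and 1.34 in WT libraries, and these overlap. The log2 ratio of Treml1 to Tubb1 was -1.08, -1.10 and -1.32 in KO libraries and -1.30, -1.13 and -0.54 in WT libraries, and these overlap too. These pairs were chosen after the values were seen, and no test was made.

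On the per-length scale of the deposited FPKM values, Pf4 was the most abundant of the 9 in both groups, at 11.3 ± 2.91 FPKM in KO and 22.2 ± 6.49 FPKM in WT (SD, n = 3 each). Its range was apart from that of every other member. In KO lungs it was followed by Clec1b at 1.82 ± 0.0676, Gp6 at 1.78 ± 0.261 and Itga2b at 1.48 ± 0.227 FPKM, whose neighbouring ranges overlap. Then came Gp9 at 0.720 ± 0.417, Tubb1 at 0.411 ± 0.0642, Treml1 at 0.301 ± 0.0658 and Ppbp at 0.1504 ± 0.139 FPKM, again with overlapping neighbours. In WT lungs the order was Itga2b at 3.02 ± 1.11, Clec1b at 2.38 ± 0.257, Gp6 at 1.85 ± 0.753, Tubb1 at 1.51 ± 0.416, Gp9 at 1.27 ± 0.176, Treml1 at 1.21 ± 0.180 and Ppbp at 0.999 ± 0.261 FPKM, and each overlapped its neighbour. The ranges of Tubb1 and Treml1 lay wholly below that of Gp6 in KO lungs and in WT replicates 2 and 3, and overlapped it in WT lungs through WT replicate 1.

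Beyond the 9, a wider list of 51 platelet and megakaryocyte genes was examined, all of which were tested. With all 6 libraries 0 of them passed edgeR's test over all genes, at a background of 0.0542% called in either direction, of which 0.0162% were called higher. At an unadjusted p under 0.05, 8 were lower and 6 higher, at backgrounds of 6.29% and 5.04%. DESeq2 with all 6 libraries called Gp5 and Thbs1 lower, at a background of 1.66%, and Rasgrp2 higher, at a background of 1.05%. Without WT replicate 1, 5 fell and 2 rose, at a background of 2.34% called lower, 1.65% called higher and 3.99% in either direction. Leaving out WT replicate 2 as well left 0 of these 7 calls, WT replicate 3 left 1, KO replicate 1 left 4, and KO replicate 2 or 3 left 2. At an unadjusted p under 0.05, 11 were lower and 7 higher in the fit without WT replicate 1, at backgrounds of 9.28% and 8.52%. Every KO library was above every WT library in 9 of the 51 with all 6 libraries and in 12 without WT replicate 1, at backgrounds of 11.4% and 17.1%. Every KO library was below every WT library in 12 and 13 of the 51, at backgrounds of 11.4% and 17.5%. The list's median log2 fold change was -0.09 with all 6 libraries and -0.04 without WT replicate 1. Many of its genes are also made by endothelium or leukocytes, which form far more of the lung, and the part of these cells in the medians was not tested.

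Among 9 adhesion receptors, Gp5 and Itga2 fell without WT replicate 1, and the role's median log2 fold change was -0.36 with all 6 libraries and -0.08 without that library. Gp5 encodes glycoprotein V, the subunit of the von Willebrand factor receptor that thrombin cleaves. It stood at 0.518, 0.284 and 0.287 CPM in KO libraries and at 3.35, 1.81 and 1.501 CPM in WT libraries, on 9 to 16 reads in KO and 56 to 99 in WT. The groups were well apart, and the fitted difference was -2.60 on the log2 scale (SE 0.46) at an edgeR adjusted p of 0.160, and -2.18 (SE 0.46) at an edgeR adjusted p of 0.0284 without WT replicate 1. The call without WT replicate 1 was lost when WT replicate 2 or 3 or KO replicate 2 or 3 was left out as well, at edgeR adjusted p values of 0.0707 to 0.176. The authors' deposited table lists Gp5 at -2.62, with an adjusted p of 0.000350.

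Other parts of the same receptors gave different values. Gp1ba, the alpha chain that binds von Willebrand factor, stood at 0.486, 1.51 and 0.765 CPM in KO libraries and at 1.12, 0.965 and 0.831 CPM in WT libraries, with a log2 fold change of -0.07 (SE 0.47, 95% confidence interval -1.18 to 1.03), and of 0.04 (SE 0.52) without WT replicate 1. Itgb3, the beta-3 chain that pairs with the Itga2b product and is also made by endothelium, stood at 24.1, 22.8 and 27.0 CPM in KO libraries and at 29.7, 26.9 and 23.7 CPM in WT libraries. Its log2 fold change was -0.12 (SE 0.13), with an edgeR adjusted p of 0.694, and -0.04 (SE 0.10) without WT replicate 1. Itga2, the alpha chain of a collagen-binding integrin, differed by -0.57 on the log2 scale (SE 0.12, edgeR adjusted p 0.0275) without WT replicate 1 and by -0.48 (SE 0.15, edgeR adjusted p 0.337) with all 6 libraries. Selp, the P-selectin of platelet granules and endothelium, differed on the log2 scale by -0.45 (SE 0.29, edgeR adjusted p 0.557) with all 6 libraries and -0.08 (SE 0.18, edgeR adjusted p 0.872) without WT replicate 1, the library in which it was highest.

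Among 10 genes of granule cargo and biogenesis, Thbs1 and Cd63 fell without WT replicate 1. Thbs1, which encodes the adhesive protein thrombospondin 1 of alpha granules and stromal cells, averaged 139 ± 17.1 CPM in KO and 199 ± 13.002 CPM in WT (SD, n = 3 each). Its log2 fold change was -0.52 (SE 0.12, edgeR adjusted p 0.246), and -0.46 (SE 0.09, edgeR adjusted p 0.0216) without WT replicate 1. F13a1, the coagulation factor XIII A chain of platelets and macrophages, averaged 3.71 ± 1.55 CPM in KO and 8.35 ± 4.21 CPM in WT and did not pass in either fit. Cd63, a granule membrane tetraspanin found in many cells, differed by -0.23 on the log2 scale (SE 0.05, edgeR adjusted p 0.0474) without WT replicate 1 and by -0.45 (SE 0.17, edgeR adjusted p 0.401) with all 6 libraries. Of the 6 G protein coupled receptors and ion channels, 0 passed in either fit. F2rl2 and F2rl3 encode the thrombin receptors PAR3 and PAR4, and their log2 fold changes had opposite signs, -0.92 (SE 0.31) and 0.59 (SE 0.27), with edgeR adjusted p values of 0.374 and 0.457. They were -0.999 (SE 0.34) and 0.61 (SE 0.32) without WT replicate 1.

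The 14 signalling proteins had a median above 0, at 0.09 in both fits. Rasgrp2, the calcium-sensing exchange factor that activates Rap1 in platelets and is also expressed in lymphocytes, stood at 47.9, 45.0 and 53.7 CPM in KO libraries and at 26.2, 32.9 and 37.5 CPM in WT libraries. It rose without WT replicate 1, by 0.47 on the log2 scale (SE 0.09, edgeR adjusted p 0.0215), and the difference was 0.60 (SE 0.15, edgeR adjusted p 0.259) with all 6 libraries. Lat, the adaptor of collagen and T cell receptor signalling, rose by 0.67 (SE 0.14, edgeR adjusted p 0.0296) in the fit without WT replicate 1, against 0.99 (SE 0.35, edgeR adjusted p 0.376) with all 6 libraries. Plek, the pleckstrin of platelets and leukocytes, differed by 0.34 on the log2 scale (SE 0.09, edgeR adjusted p 0.0713) without WT replicate 1 and by 0.42 (SE 0.12, edgeR adjusted p 0.303) with all 6 libraries. The 3 eicosanoid enzymes had log2 fold changes below 0 and 0 passed; Ptgs1, cyclooxygenase 1, averaged 43.5 ± 5.75 CPM in KO and 52.3 ± 0.554 CPM in WT, and Tbxas1, thromboxane synthase, 11.3 ± 0.598 CPM in KO and 15.6 ± 4.89 CPM in WT.

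Regulators of megakaryocyte development were mixed. Gata1, shared with erythroid, mast and eosinophil lineages, stood at 0.194, 0.189 and 0.383 CPM in KO libraries and at 0.542, 0.422 and 0.697 CPM in WT libraries. Its KO libraries were all below its WT libraries, at a background of 11.4%, on 6 to 12 reads in KO and 14 to 26 in WT. The log2 difference was -1.11 (SE 0.50, edgeR adjusted p 0.450), and -1.12 (SE 0.63, edgeR adjusted p 0.399) without WT replicate 1. Nfe2, a factor of platelet release also present in other myeloid cells, stood at 7.35, 6.56 and 7.49 CPM in KO libraries and at 5.08, 4.95 and 4.80 CPM in WT libraries. All KO libraries of Nfe2 were above all WT libraries, at a background of 11.4%, on 208 to 235 reads in KO and 150 to 179 in WT. Its log2 difference was 0.53 (SE 0.17, edgeR adjusted p 0.338), and 0.55 (SE 0.17, edgeR adjusted p 0.110) without WT replicate 1. Fli1, abundant in endothelium, fell by 0.32 on the log2 scale without WT replicate 1 (SE 0.08, edgeR adjusted p 0.0480), and had a log2 fold change of -0.16 (SE 0.17) with all 6 libraries. Cd63, Lat and Fli1 are named because they were called, after their values were seen.

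**Figure D3:**
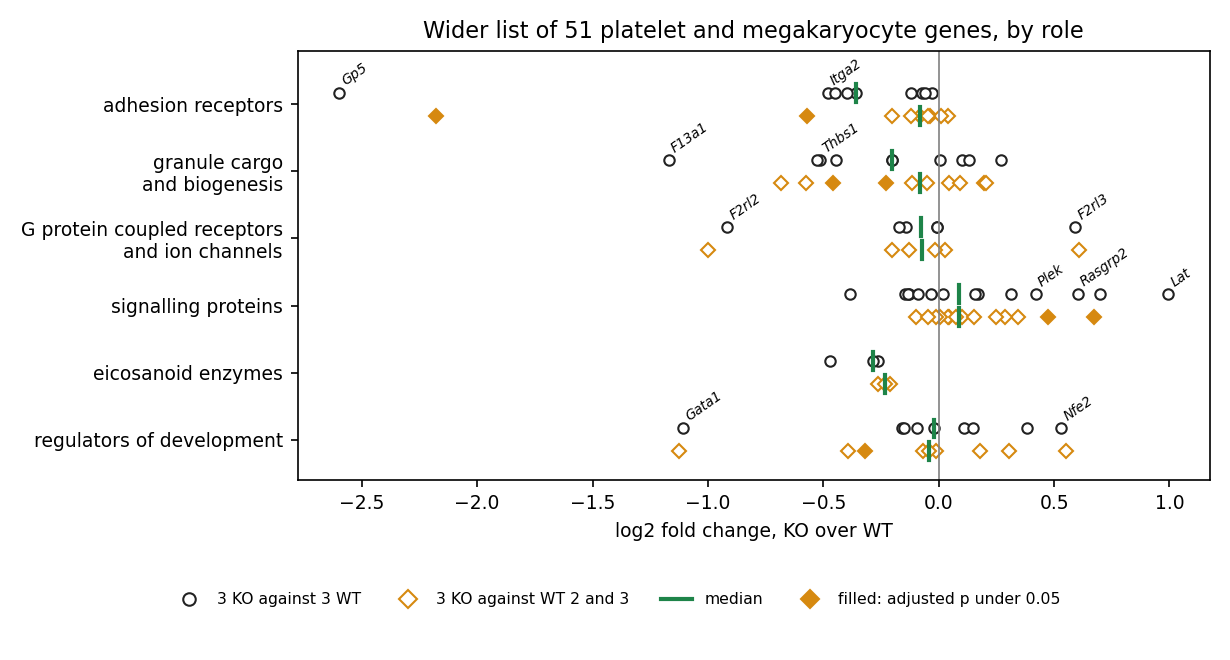
Log2 fold change of KO over WT (x axis) for the 51 genes of the wider list, grouped by role, with all 6 libraries (circles) and without WT replicate 1 (diamonds); filled symbols have an adjusted p under 0.05 and green bars are medians. Gp5 lies at -2.60 and -2.18, far from the other adhesion receptors, and the signalling proteins have a median of 0.09.

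Markers of other blood and vessel cells were read beside the platelet genes. The summed level of the 9 genes was 21.5, 21.5 and 18.2 CPM in KO libraries and 37.8, 39.7 and 30.6 CPM in WT libraries, with no overlap. The 51 genes of the wider list summed to 4426 to 4549 CPM in KO and 4560 to 5965 CPM in WT, also with no overlap but by a narrow margin. The largest parts of this sum were Vwf, Tln1 and Cd9. They stood at 991 to 1035, 644 to 678 and 470 to 529 CPM in KO. In WT they stood at 977 to 1523, 650 to 885 and 530 to 824 CPM, and the groups overlapped for Vwf and Tln1. The summed level of 13 erythroid markers was 1338, 926 and 517 CPM in KO libraries and 728, 2102 and 2406 CPM in WT libraries. The erythroid sums of all KO libraries were below those of WT replicates 2 and 3, and WT replicate 1 lay within the KO range. Of 12 tested erythroid genes, 4 were lower without WT replicate 1, at a background of 2.34%, and 0 with all 6 libraries, at a background of 0.0379%. At an unadjusted edgeR p under 0.05 these counts were 9 and 1, at backgrounds of 9.28% and 6.29%. Every KO library was below every WT library in 9 and 1 of the 12, at backgrounds of 17.5% and 11.4%. The erythroid median log2 fold change was -1.27 without WT replicate 1 and -0.92 with all 6 libraries, against -0.77 and -0.97 for the 7 tested members. The part of blood content in the differences of the platelet genes was not tested.

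The 7 lung markers, mostly of alveolar epithelium, summed to 22975 to 25191 CPM in KO and 25224 to 37045 CPM in WT, so that all KO libraries were below all WT libraries by a narrow margin. Among them Scgb1a1, of club cells, was higher in every KO library, at 5167 to 6163 CPM in KO and 3616 to 4525 CPM in WT. The summed level of 8 endothelial markers was 3611, 3454 and 3662 CPM in KO libraries and 6243, 3919 and 3564 CPM in WT libraries, with WT replicate 1 far above the rest. The 10 neutrophil markers summed to 53.3, 71.1 and 65.6 CPM in KO libraries and to 17.9, 76.1 and 55.5 CPM in WT libraries, and overlapped. The 7 monocyte markers summed to 8416 to 10571 CPM in KO and 9070 to 13788 CPM in WT, of which Lyz2 alone, also made by alveolar cells, gave 8098 to 10231 CPM in KO and 8751 to 13376 CPM in WT. The 7 mast cell and basophil markers summed to 461 to 488 CPM in KO and 341 to 516 CPM in WT, and most of this was Kit and Gata2, both also made by endothelium, at 252 to 272 and 162 to 177 CPM in KO and 134 to 270 and 162 to 222 CPM in WT. In none of the endothelial, neutrophil, monocyte and mast cell lists were the sums of all KO libraries below those of all WT libraries. Without WT replicate 1, edgeR called 1 of 8 endothelial genes lower, at a background of 2.34%. It called 1 of 7 monocyte and 1 of 7 mast cell and basophil genes higher, at a background of 1.65%, and 0 of 9 tested neutrophil genes. With all 6 libraries it called 0 in each of these lists, at a background of 0.0542% in either direction.

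**Figure D4:**
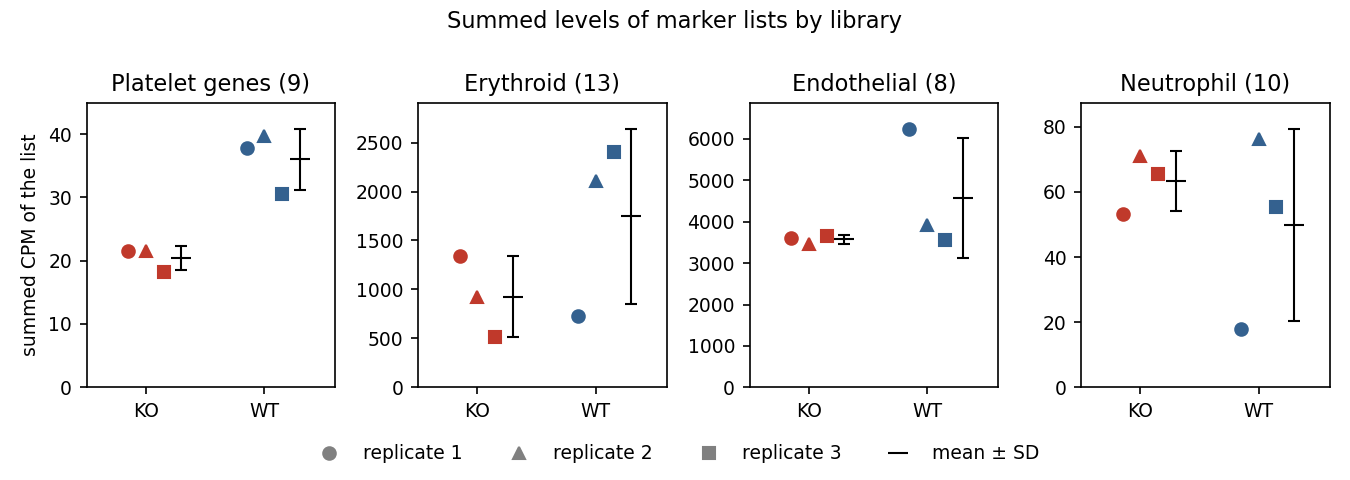
Summed CPM (y axes, from 0) of the 9 platelet genes and of 3 marker lists in each KO (left) and WT (right) library; symbols are replicates and bars are mean ± SD (n = 3 each). The platelet sums of 18.2 to 21.5 CPM in KO lie below the 30.6 to 39.7 CPM in WT. The groups overlap in the endothelial and neutrophil panels, and in the erythroid panel through WT replicate 1 alone. The lung list and the wider platelet list, which are not drawn, also had every KO sum below every WT sum, by narrow margins.

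The genes whose pattern over the 6 libraries was nearest to the mean pattern of the 7 tested members were Slc47a1, Mt1, Gal3st3, Kcne3, Gpnmb, Bmp2, C4bpa and Cxcl14. Nearness was the root mean square distance between centred log2 CPM values, and it ran from 0.0756 for Slc47a1 to 0.145 for Cxcl14. The members themselves lay at 0.314 (Pf4) to 0.654 (Gp6) from their own mean. Slc47a1, an organic cation exporter, stood at 3.27, 3.53 and 3.06 CPM in KO libraries and at 6.67, 6.67 and 5.44 CPM in WT libraries. None of the 8 is in the wider platelet list, and each had a log2 fold change between -1.09 and -0.74 with all 6 libraries. A pattern over 6 libraries with 2 groups is matched by any gene with a similar difference between groups.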

How the data were processed

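Lung poly-A RNA of 3 KO and 3 WT rats was sequenced as paired 150 base reads; sample titles gave the groups and replicate numbers. The submitters' processing notes name featureCounts 2.0.6, DESeq2 1.42.0, StringTie 2.2.3, HISAT2 2.2.1 and CASAVA, and the build mRatBN7.2. The sources used here do not give strand handling or treatment of multi-mapping reads. Deposited by the authors were raw read counts for each gene, FPKM values, and a table of 192 genes with log2 fold changes of KO over WT, p-values and a signal per library (counts scaled by a size factor). Even counts outnumbered odd ones among low counts (3171 against 1641 genes in WT replicate 1), as happens when both mates are counted, so independent fragments are fewer than reads.

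Counts were tested with edgeR 4.0.16 in R 4.3.3 (TMM, filterByExpr defaults with a minimum count of 10, quasi-likelihood test, genotype as the single term), with Benjamini-Hochberg adjustment over all tested genes at a threshold of 0.05, with all 6 libraries and without WT replicate 1. CPM values use the TMM library sizes of all 6 libraries. Each standard error is the size of the log2 fold change over the root of its F statistic. Floors of 3 reads, or 6 where both mates are counted, cover counting error only. The fit was tested on simulated data. Alternatives were DESeq2 1.42.0, limma 3.58.1 (voom, and log2 FPKM with pseudocounts of 1 and 0.1), other scalings and filters, a replicate block and leaving out each library.

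The members, the lists and the rule for named genes were chosen with earlier results of these data known. The rule names all members, the 2 genes of each role of the wider list with the smallest p plus 7 set genes, and the 8 nearest in pattern; 1 of the set genes is not reported here. Each chromosome number is the RefSeq (GRCr8) chromosome of at least 99.5% of the gene identifiers shared with it, and gene coordinates are those of the deposited table. A chi-square of counts found no library deposited more than once (at least 7.85 per gene for every pair).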

Additional observations from a re-analysis of the deposited data

How the results depend on the processing

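With all 6 libraries, DESeq2 on the same genes called 3 of the 7 tested members lower, at a background of 1.66% of 18464 tested genes. DESeq2 on all genes (chosen after seeing the data) also called 3, and leaving out each library gave 0 to 2. The wider list had 3 calls with DESeq2 on the same genes and 3 on all genes, and 0 to 7 when a library was left out. Over all genes, the counts were 501 and 401 with these DESeq2 settings, 2 with the replicate block, and 1 to 758 when a library was left out, against 10 in edgeR. The 758 came without WT replicate 1, and the other omissions gave 1 to 7.

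Without WT replicate 1, limma on log2(FPKM + 1) and on log2(FPKM + 0.1) called 1 of the 7 tested members each (Treml1). An edgeR fit with no filter, which tested more genes, Ppbp among them, called 4, and 1707 genes in all. Leaving out a further KO library gave 2, and 233 to 522 genes in all. The wider list had 1 call in each FPKM fit, 12 with no filter, and 0 to 4 when a further library was left out, against 7. Over the same 18994 genes the counts were 1184 with DESeq2, and 180 and 236 in the FPKM fits with pseudocounts of 1 and 0.1, against 758. Over other sets of genes they were 1142 with DESeq2 on all genes, 1707 with no filter, and 233 to 522 when a further KO library was left out. The shares of these other sets were not worked out. In the replicate block, which then drops KO replicate 1, 3 of the 7 tested members passed, among them Pf4 (edgeR adjusted p 0.0498). In all, 794 genes passed there, and their share of the genes tested was not worked out. The labels state no pairing, and same-numbered libraries had correlations of deviations of -0.08, 0.03 and -0.08.

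With all 6 libraries the log2 fold change of Gp6 turned to 0.00696 with limma-voom, 0.0244 with limma on log2(FPKM + 0.1) and 0.0309 with the replicate block, and ran from -0.36 to 0.17 when a library was left out. Tubb1, Treml1, Itga2b, Pf4, Gp9 and Clec1b stayed below 0 in all settings run, in both comparisons. The cause of these changes was not tested. Low read numbers limit Treml1, Gp9, Ppbp, Gp5 and Gata1.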
